A study of Drosophila melanogaster with 4 samples.

Results

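The sequence at the centromere-side ends of chromosome arms 2L, 3L, X and 3R was examined for regions enriched in histone H4. In the FlyBase r5 build named in the file headers, 2L, 3L and X run toward the centromere and 3R starts at it. Members were the enriched regions that ended above base 22000000 on 2L or X, ended above base 22900000 on 3L, or started at or before base 400000 on 3R. These ends span 1.01 Mb of 2L, 1.64 Mb of 3L, 0.423 Mb of X and 0.4 Mb of 3R, 3.48 Mb in all. They held 229 of the 15405 enriched regions of replicate 1, 180 of the 12952 of replicate 2 and 343 of the 22525 of a combined list made for the replicate set. The rule itself uses position alone, but its boundaries were set with earlier results of these data known. Each end was set against the 2 Mb of the same arm next to it, which held 934, 742 and 1429 regions in replicate 1, replicate 2 and the combined list.

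The study mapped H4 by chromatin immunoprecipitation and sequencing (ChIP-seq) in embryos of the wild-type Oregon-R strain of Drosophila melanogaster, aged 14 to 16 h and crosslinked with 1.8% formaldehyde. H4 was immunoprecipitated in 2 libraries, and genomic DNA was sequenced as the input of each in 2 more. All 4 libraries shared strain, genotype and stage, so no condition was compared, and the input entered only through the authors' own calls. Nothing in the labels tells whether separate embryo collections were used, and the spread between the replicates may be technical. No read counts were used, and the sequencing depth is unknown. Whole embryos were used, so a region enriched in fewer cells and a region enriched less in each cell cannot be told apart.

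Histone H4 pairs with H3 at the core of every nucleosome, the spool on which DNA is wound. An antibody to H4 that is not directed to a modification therefore reads where nucleosomes were recovered relative to input, not a chromatin state. The centromere-side ends of the assembled arms lead into pericentric heterochromatin, which is compact, rich in repeats and poor in genes, and which in flies carries methylated lysine 9 of H3 and the protein HP1. No sequence of the FlyBase r5 build was at hand, so regions are given by position, no gene is named, and bases of unknown sequence inside the windows were not counted.

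The ends of 2L, 3L and X had less of their length in H4-enriched regions than the sequence next to them, in each library, and the end of 3R had more in each replicate list. At the end of 3L, 13.9% and 10.2% of bases lay in enriched regions in replicates 1 and 2, against 43.3% and 32.7% in the adjoining 2 Mb. On 2L the end had 13.5% and 10.8%, against 20.9% and 16.0% in the adjoining 2 Mb. On X the end had 9.05% and 6.24%, against 15.4% and 12.0% in the adjoining 2 Mb. The end of 3R had 38.9% and 32.0%, against 34.2% and 26.6% in the adjoining 2 Mb. Replicate 1 was above replicate 2 in all 8 windows, so the replicates were compared within each list.

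The mean difference between end and adjoining 2 Mb was -25.9 ± 4.90 percentage points on 3L, -6.31 ± 1.54 on 2L, -6.07 ± 0.441 on X and 5.05 ± 0.510 on 3R (SD, n = 2 libraries each). Each of these exceeded its spread between the libraries. As ratios, the ends had 0.317 of the adjoining share on 3L, 0.553 on X, 0.659 on 2L and 1.17 on 3R. Pooled over the 4 arms by bases, the ends were covered to 14.2 ± 2.58% and the adjoining sequence to 25.1 ± 4.69%, a difference of -10.9 ± 2.11 percentage points. Much of the pooled difference came from 3L, and without that arm it was -4.67 percentage points. An exact paired permutation test over 2 libraries cannot go below a two-sided p of 0.5, the value found here, so no difference between end and adjoining sequence could be called by a test.

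The combined list gave higher shares and another order on 3R. Its end values were 20.6% on 2L, 21.2% on 3L, 18.1% on X and 45.4% on 3R, against 33.5%, 58.4%, 30.1% and 50.7% in the adjoining 2 Mb of these arms. The end of 3R was thus above its neighbouring sequence in each replicate list and below it in the combined list.

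**Figure D1:**
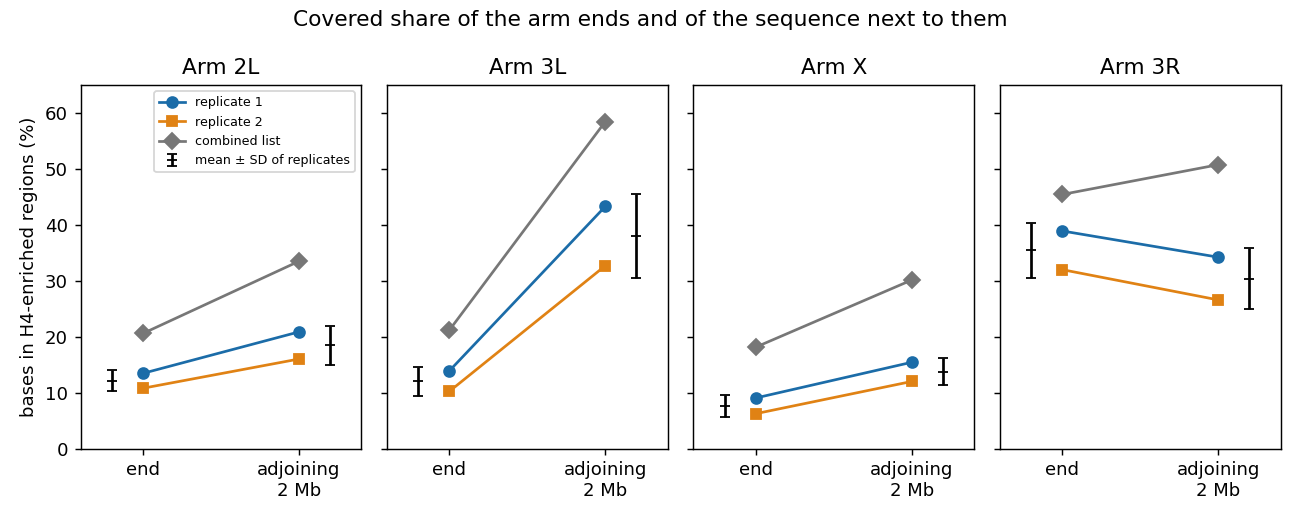
Percentage of bases in H4-enriched regions at each arm end (left in each panel) and in the adjoining 2 Mb (right), for replicate 1, replicate 2 and the combined list, with the mean ± SD of the 2 replicates in black. The lines go up from end to adjoining sequence on 2L, 3L and X, and down on 3R in the replicate lists but not in the combined list.

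Compared with the rest of their own arms, the ends of 2L, 3L and X were among the least covered stretches and the end of 3R was not. Each arm was divided from its centromere-side end into tiles as long as that end. On 3L the end was the lowest of the 14 tiles in each list, with the 13 others between 18.4% and 45.7% in replicate 1 and between 13.5% and 37.6% in replicate 2. On 2L, 1 of the 21 other tiles was lower than the end in each replicate list. On X, 1 of the 52 other tiles was lower in replicate 1 and 0 in replicate 2. On 3R, 40 and 41 of the 68 other tiles were lower than the end in replicates 1 and 2, where the medians of the others were 36.0% and 27.5%. In the combined list 19 of those 68 tiles were lower than the end of 3R.

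The covered share along the arms was followed in bins of 100 kb counted from the end of each arm's sequence. At the end of 3L no whole bin exceeded 24.0% in replicate 1 or 19.7% in replicate 2, and the bin from 1500 kb held 0% and 1.70%. The next bin, from 1600 kb, held 48.7% and 33.3%. That step falls inside the end as defined, since the outermost 43.6 kb of the end was covered to 40.6% and 23.9% in replicates 1 and 2. The remaining 1.6 Mb was covered to 13.2% and 9.86%. The step on 3L thus lay at the same bin in each library, but it was not a clean edge. The bin from 1700 kb fell back to 25.9% and 18.8%, in replicate 2 below the highest bin of the end. The bin from 1800 kb held 56.3% and 36.6%.

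On X and 2L no such step was seen at the chosen boundary. The first bin from the end with more than 25% of its bases in regions lay at 2100 kb on X in each replicate. On 2L it lay at 1700 kb in replicate 1 and 1800 kb in replicate 2. That bin of the combined list, whose shares are higher in every window, lay at 400 kb on 2L, inside the end, and at 1000 kb on X. The level of 25% was chosen after the values were seen. In the replicate lists the low share of these arms thus went on well into the adjoining 2 Mb, and the bin of 2L from 1500 kb held 0% in each replicate and 1.33% in the combined list.

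The end of 3R was uneven. Its first 3 bins held 40.7%, 41.5% and 58.9% in replicate 1 and 31.6%, 31.1% and 51.9% in replicate 2. The bin from 300 kb held 14.5% and 13.3%, and the low share went on across the boundary with 15.8% and 18.0% in the next bin. The members of 3R were thus concentrated in the 300 kb nearest the end of the sequence. Over the 34 whole bins of the 4 ends, Pearson's r between the replicates' shares was 0.97 and Spearman's rho 0.87, given as a description across bins of the same libraries. That value spans arms with very different shares. Within arms, r was 0.98 on 3R (4 bins), 0.90 on 3L (16 bins), 0.73 on 2L (10 bins) and 0.52 on X (4 bins), with a rho of 0.80, 0.89, 0.61 and 0 in the same order.

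**Figure D2:**
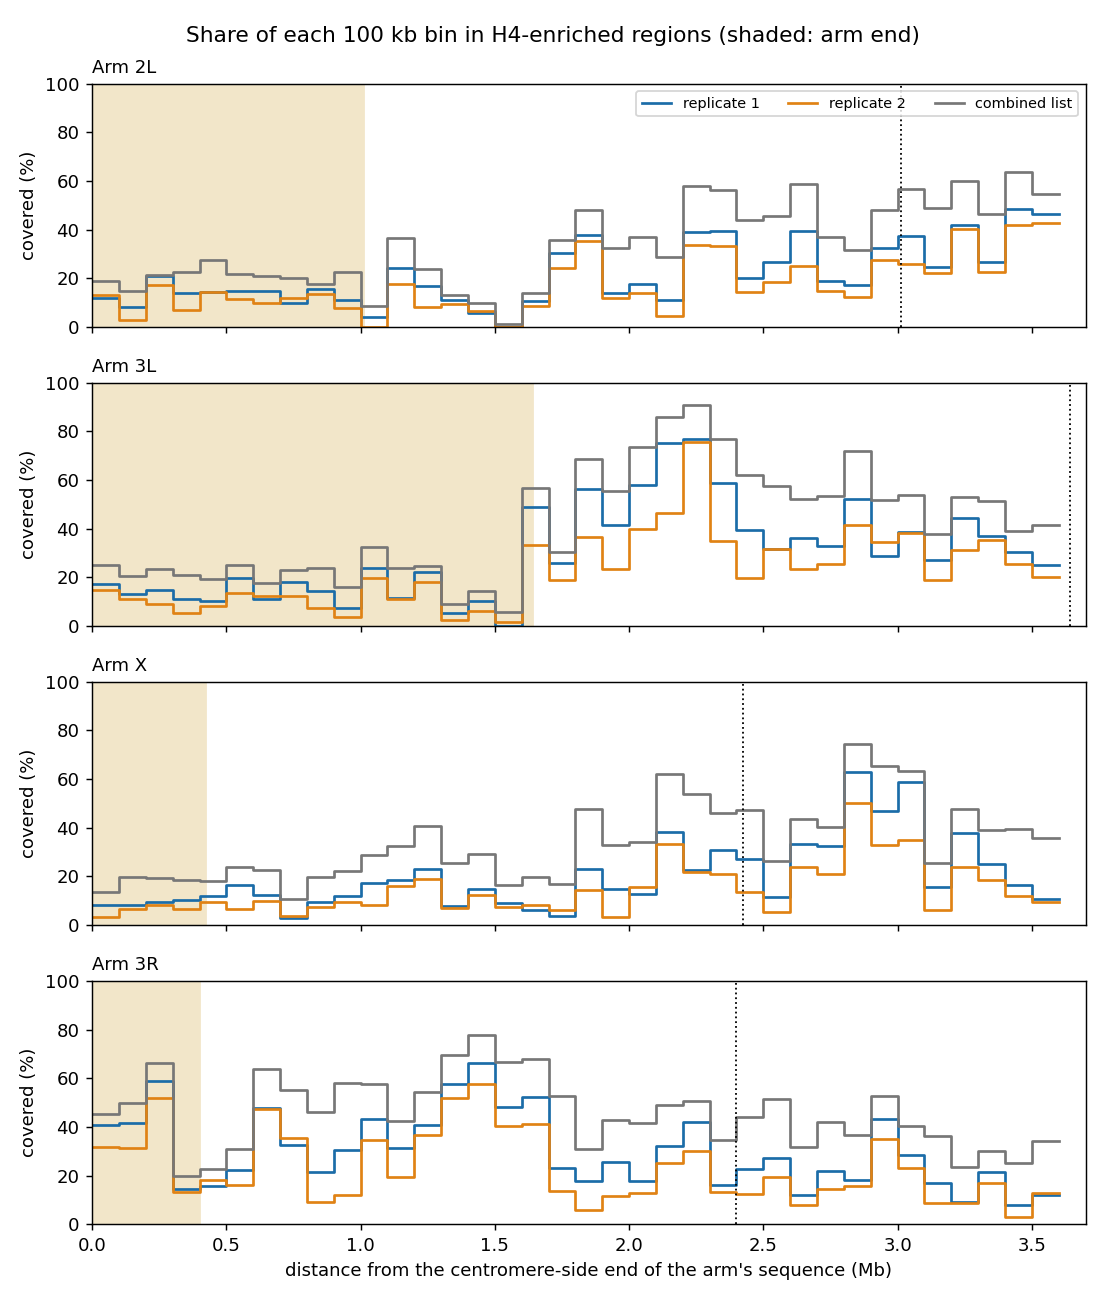
Percentage of each 100 kb bin in H4-enriched regions against the distance from the centromere-side end of the arm's sequence in Mb, for replicate 1, replicate 2 and the combined list; the arm end is shaded and a dotted line marks the far side of the adjoining 2 Mb. On 3L the share steps up in the bin from 1600 kb and dips in the next. On X and 2L it stays low beyond the shaded part in the replicate lists, and on 3R the first 3 bins are high.

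In the replicate lists the lower shares of 3 ends went with fewer regions rather than with narrower ones. The end of 3L had 55.4 and 42.0 regions per Mb in replicates 1 and 2, against 162.5 and 130.5 in the adjoining 2 Mb. The end of 2L had 54.4 and 40.5 per Mb, against 92.0 and 72.0. The end of X had 44.9 and 33.1 per Mb, against 73.5 and 60.0, and rested on only 19 and 14 regions. The end of 3R had 160 and 140 per Mb, against 139 and 108.5. On 3L the density ratio of end to adjoining sequence was 0.331 and that of the mean width 0.958, as means of the libraries. On 2L they were 0.577 and 1.14, on X 0.582 and 0.948, and on 3R 1.22 and 0.959. The combined list gave 0.460 and 0.788 on 3L, where regions were both fewer and narrower. It gave 0.543 and 1.13 on 2L, 0.633 and 0.949 on X, and 0.808 and 1.11 on 3R. Density in the combined list was lower at all 4 ends, with 83.04 regions per Mb on 2L, 91.3 on 3L, 94.6 on X and 172.5 on 3R, against 153, 198.5, 149.5 and 213.5 in the adjoining 2 Mb of these arms, so that the direction on 3R was opposite to that in the replicate lists.

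Members at the ends of 2L, 3L and X stood far apart. The spacing is the number of bases between neighbouring regions of the same window. Its median at the end of 3L was 9699.5 and 16031.5 bp in replicates 1 and 2, against 1562.5 and 2754.5 bp in the adjoining 2 Mb. On 2L it was 9564.5 and 11268 bp, against 4590 and 4984 bp. On X it was 10600.5 and 7716 bp, against 4869 and 6241 bp. On 3R it was 1753 and 2542 bp, against 2453 and 2732.5 bp. The mean difference was 10707 ± 3635 bp on 3L, 5629 ± 926 bp on 2L, 3603 ± 3010 bp on X and -445 ± 360 bp on 3R (SD, n = 2 libraries each). The spread on X was close to the difference itself. By the combined list the end of 3R had nearly the median spacing of its adjoining 2 Mb, with 1269.5 against 1255 bp, while the ends of 2L, 3L and X had 6587, 4976 and 5543 bp, against 2126, 1127.5 and 2160.5 bp.

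Pooled over the 4 ends, the median spacing was 6611 ± 1007 bp, against 3185 ± 647 bp in the adjoining sequence. Without 3L the pooled difference of 3426 bp became 697 bp, and without 3R it became 7757 bp. Spacings of at least 20 kb took up 54.9% and 69.9% of the end of 3L in replicates 1 and 2, against 10.5% and 13.7% of its adjoining 2 Mb. They took up 58.2% and 66.6% of the end of 2L, against 29.1% and 43.9%, and 68.0% and 74.2% of the end of X, against 48.8% and 56.2%. On 3R they took up 7.65% and 7.66% of the end, from 1 spacing in each list, against 10.5% and 29.2%, but in the combined list 7.06% of the end, against 1.27%. Empty sequence between a window's outermost region and its edge was not counted. In the combined list the last member of 3R ended at 388337 and the next region started at 447865. Only the stretch beyond the boundary exceeded 20 kb there, so the 1.27% of the adjoining sequence is understated. At the boundary of 3R, base 400000, the last members ended at 377915 and 364472 in replicates 1 and 2. The next regions started at 447865 and 447961. These edge stretches exceeded 20 kb on each side, so the replicates' shares for 3R are understated in both windows. Beyond the boundary, base 22000000, the nearest adjoining regions ended at 21974684 and 21908312 on 2L, and at 21946463 and 21946191 on X. These stretches exceeded 20 kb too, so the adjoining shares of 2L and X are also understated. At the sequence end, 26.0 and 25.8 kb of 2L were left out of the end's shares. So were 20.9 kb of 3L in replicate 1 and 26.9 kb of X in replicate 2.

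**Figure D3:**
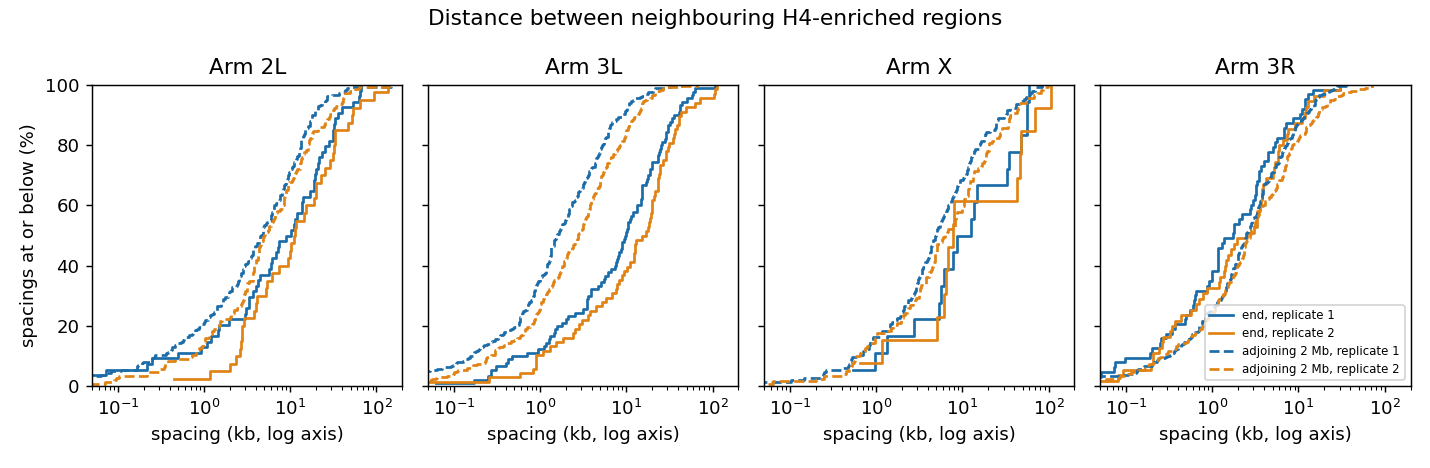
Cumulative percentage of the spacings between neighbouring H4-enriched regions at or below a given length in kb (log axis), per arm, for the end (solid) and the adjoining 2 Mb (dashed) in replicates 1 and 2. The solid lines lie to the right on 2L and 3L in each library, while on 3R they lie to the left for most of their length.

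The longest empty stretches differed between the lists. In the combined list that of 3L was 62.4 kb long and spanned 22973848 to 23036206, with 1 region of replicate 2 inside it. Those of 2L (48.6 kb, 22291505 to 22340085), X (40.2 kb, 22015635 to 22055820) and 3R (28.2 kb, 334288 to 362517) held no region of either replicate. Replicate 2 had a longer empty stretch on 2L, from 22767108 to 22904998 (138 kb), in which replicate 1 had 5 regions and the combined list 9. On X its longest was 108 kb, from 22284042 to 22391750, in which replicate 1 had 1 region and the combined list 7. On 3L its longest was 113 kb, from 22923347 to 23036095, in which replicate 1 had 3 regions and the combined list 7. That of replicate 1 on 3L was 108 kb, from 22942256 to 23050275, in which replicate 2 had 1 region and the combined list 4. An empty stretch in 1 list was thus not always empty in another.

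Pooled over the arms, widths at the ends were close to those next to them. The median width over the 4 ends was 1984 and 1997 bp in replicates 1 and 2, against 1906 and 1845.5 bp in the adjoining sequence. The mean difference was 115 ± 52.0 bp (SD, n = 2). It changed sign when only the higher scoring 50% of each list (-8.25 bp), only regions of at least 2000 bp (-50.8 bp) or only the last 400 kb of each arm (-12.2 bp) were used. By arm, the end of 2L had medians of 2007 and 2217 bp, against 1850.5 and 1848 bp, and the end of 3R 2125 and 2040 bp, against 1859 and 1856 bp. The end of 3L had 1941 and 1889 bp, against 2036 and 1919 bp, and the end of X 1609 and 1686.5 bp, against 1789 and 1678.5 bp. The combined list differed more on 3R, with 2270 against 1759 bp, and on 3L, with 1843 against 2123 bp. On 2L it had 1882 against 1696 bp and on X 1621.5 against 1632 bp.

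Broad members were few. The combined list held 2 members of 10 kb or more among 343, against 12 of 1429 regions in the adjoining sequence; 1.61% of the whole list was this broad. The longest lay on 3L from 23292464 to 23306561 (14.1 kb, score 1.00); replicate 1 covered 94.8% of it and replicate 2 covered 95.1%. It was a single region in each of them, of 13.4 kb in both. It was the only member of 10 kb or more among the 229 of replicate 1 and the 180 of replicate 2. The adjoining sequence held 5 such regions among 934 and 3 among 742. The other broad member of the combined list lay on 2L from 22483039 to 22493273 (10.2 kb, score 0.70). It was 96.0% and 69.3% covered by 3 regions of replicate 1 and 2 regions of replicate 2.

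The next longest members of the combined list were shorter and mostly shared. On 2L they spanned 22758606 to 22768051 (9.45 kb), a single region in each replicate, and 22402164 to 22408052 (5.89 kb). On 3L they spanned 22916393 to 22923709 (7.32 kb), inside the dense outermost part of the end, and 24457248 to 24464472 (7.22 kb), 79.1 kb from the end of the sequence. On 3R the 3 longest spanned 291931 to 299218 (7.29 kb), 114770 to 121919 (7.15 kb) and 260033 to 267116 (7.08 kb). On X they were shorter, from 22228610 to 22232841 (4.23 kb), 22110388 to 22113884 (3.50 kb) and 22210897 to 22214319 (3.42 kb). Each replicate covered at least 52.1% of every one of these.

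**Figure D4:**
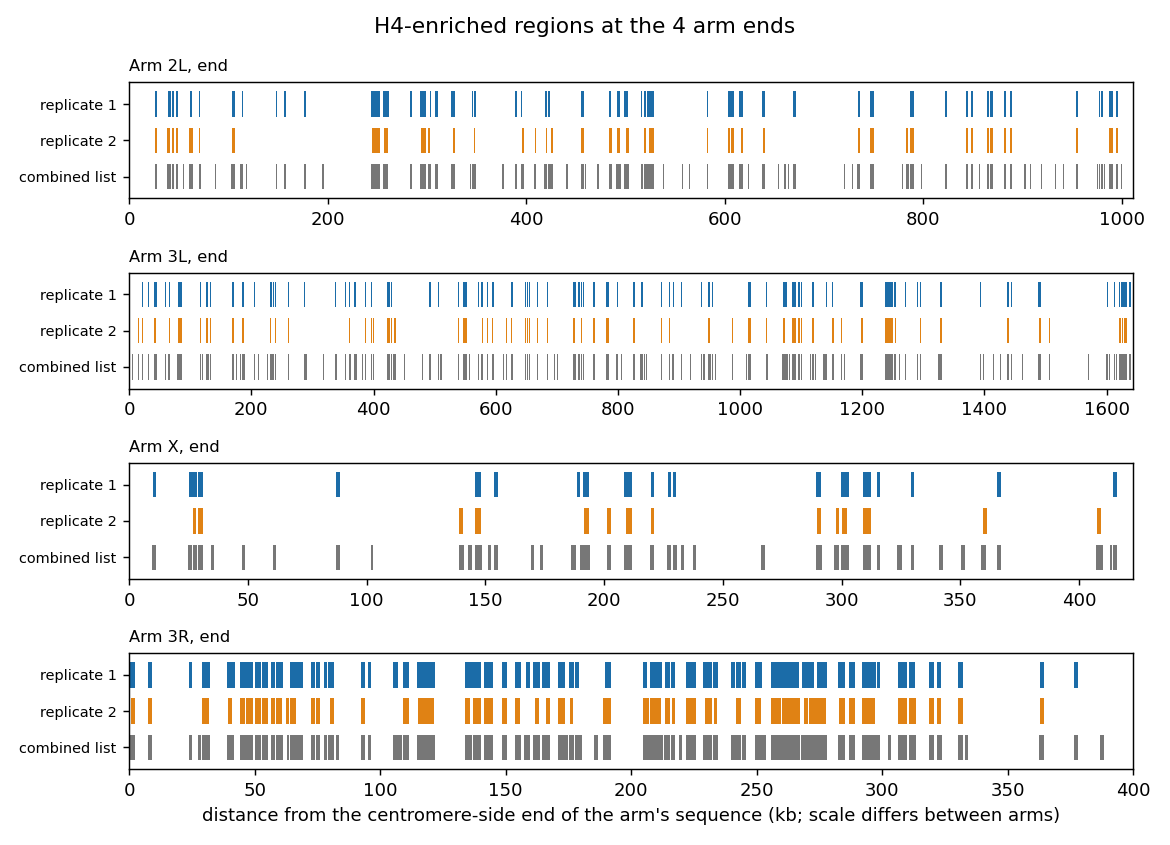
Positions of the H4-enriched regions at the 4 arm ends in replicate 1, replicate 2 and the combined list, in kb from the centromere-side end of the arm's sequence; the scale differs between arms. The 14.1 kb region of 3L is the longest in kb, though not the widest as drawn, and the regions of 3R crowd the first 300 kb.

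Each region carried a score given by the authors, whose scale is not stated in the sources used here. The values themselves gave the log base. In the combined list, 2 raised to a region's score minus the highest score was a ratio of whole numbers with a denominator of at most 100 for 1011 of 22525 regions, within 1e-10. With base e this held for 1 region and with base 10 for 10. The scores were therefore read as log2 of a ratio plus an unknown constant, and differences within a list as differences on the log2 scale.

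Scores at the ends were slightly higher than next to them. The median over the 4 ends was 0.58 and 0.61 in replicates 1 and 2, against 0.55 and 0.57 in the adjoining sequence, a mean difference of 0.034 ± 0.0078 (SD, n = 2). It was larger on 2L, with medians of 0.63 and 0.67 at the end, against 0.52 and 0.56. On 3L they were 0.60 and 0.62, against 0.54 and 0.57. On X and 3R the libraries went in opposite directions, with 0.59 and 0.69 at the end of X, against 0.63 and 0.64, and with 0.543 and 0.544 at the end of 3R, against 0.510 and 0.549. Without 3L the pooled difference was 0.0099, without 2L it was 0.020 and without 3R 0.056. With only the last 400 kb of each arm it was -0.0048.

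The upper part of the score range was fuller at the ends of 2L and 3L and not at those of X and 3R. Over the 4 ends together, scores above 1 were held by 16 of 229 members (6.99%) in replicate 1 and 10 of 180 (5.56%) in replicate 2, against 23 of 934 (2.46%) and 14 of 742 (1.89%) in the adjoining sequence. The shares over the whole lists were 3.82% and 2.35%. In the combined list 14 of 343 members (4.08%) had a score above 1, against 16 of 1429 (1.12%) in the adjoining sequence and 2.53% of the whole list. All 14 of these lay on 2L (6 of 84) and 3L (8 of 150), as did all 10 of replicate 2 and 15 of the 16 of replicate 1. On 3R the end had 1 of 64 in replicate 1 and 0 of 56 in replicate 2, against 3 of 278 and 3 of 217 in its adjoining 2 Mb. The end of X had 0 of 19 and 0 of 14, against 12 of 147 and 6 of 120. The level of 1 was chosen after the scores were seen. Wider members had higher scores, with a Spearman rho across members of 0.72 in replicate 1 and 0.56 in replicate 2. Across regions of the adjoining sequence it was 0.68 and 0.65, so the libraries differed in direction.

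The highest scores of the combined list at 2L and 3L belonged to regions that neither replicate list held, most of them very narrow. The top member of 3L, from 23985679 to 23986679, was 1001 bp wide, the least width in the combined list, and had a score of 2.97. The next on 3L, from 24039202 to 24040202, was also 1001 bp wide with a score of 2.50, and the third spanned 24092232 to 24093991 (1760 bp) with 1.28. The top members of 2L spanned 22231983 to 22233086 (1104 bp, score 2.61) and 22387314 to 22388314 (1001 bp, score 1.34). All 5 had 0% of their bases in either replicate list, whose narrowest regions were 1301 bp. The ratio behind the top score of 3L was to that of 2L as 9 to 7. Of the 14 members with a score above 1, 8 overlapped neither replicate list and 7 were narrower than 1301 bp. Of the regions with such scores, 7 of 16 in the adjoining sequence and 309 of 570 in the whole combined list overlapped neither. The share in neither list was thus near that of the whole list. In the adjoining sequence 3 of the 16 were narrower than 1301 bp.

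On 2L the third member by score, from 22661839 to 22666475 (1.15), was 85.8% and 28.9% covered in replicates 1 and 2. The top member of X, from 22373929 to 22375393 (0.91), overlapped neither list, while its next 2 were among its longest. On 3R the 3 highest spanned 255612 to 259932 (0.97), 310493 to 313306 (0.73) and 44108 to 49426 (0.70), and each replicate covered at least 88.0% of each. The 3 highest scores at the end of 3R were thus held by regions found in both replicates, whereas the top member of 2L, 3L and X was in neither.

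**Figure D5:**
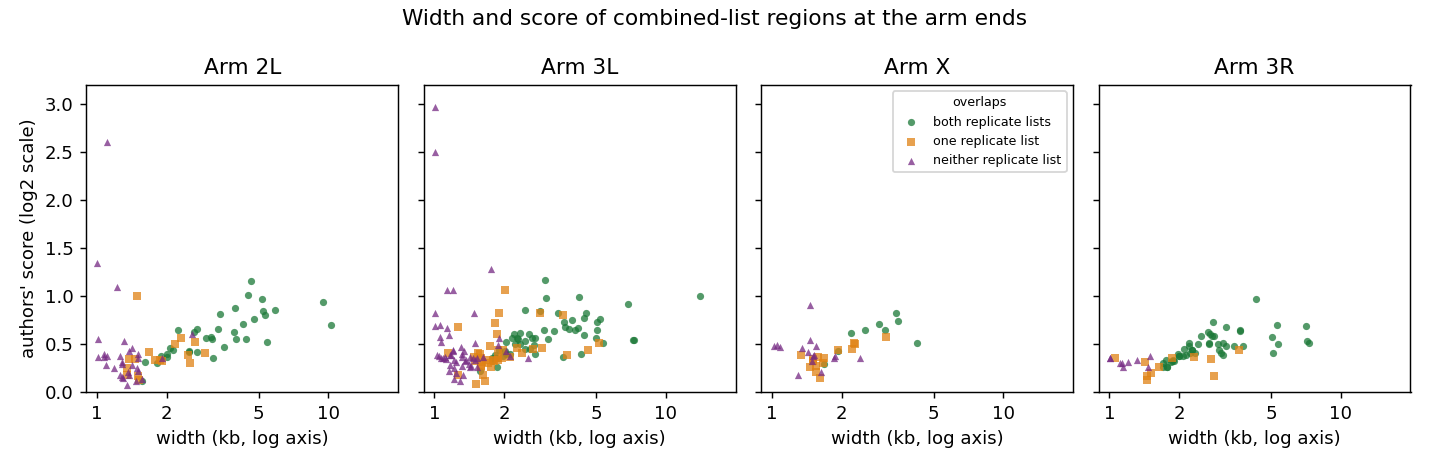
Authors' score (log2 scale) against width in kb (log axis) for the combined-list members at each arm end, marked by whether they overlap both, one or neither of the replicate lists. The scores above 1.5 on 2L and 3L belong to the narrowest regions and to the class that overlaps neither list.

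The share of regions found in both replicates was close to that of the lists at large. Of the 229 members of replicate 1, 161 overlapped a region of replicate 2 (70.3%, 95% Wilson interval 64.1 to 75.8%), against 66.7% of the adjoining regions and 70.8% of the whole list. Of the 180 members of replicate 2, 161 overlapped a region of replicate 1 (89.4%, 84.1 to 93.1%), against 86.4% of the adjoining regions and 88.8% of the whole list. Regions enter these intervals as if independent, and only counting error is covered. Unshared members were narrower, with a median of 1520.5 bp against 2342 bp for shared ones in replicate 1 and 1544 bp against 2062 bp in replicate 2.

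The ends differed among themselves in how far the replicates met. The Jaccard index (bases in both lists over bases in either) was 75.1% at the end of 3R, 62.6% at that of 2L, 60.7% at that of 3L and 40.2% at that of X. The adjoining 2 Mb had 63.4%, 56.8%, 61.1% and 50.8% for these arms in the same order. On 3R 55 of the 56 members of replicate 2 overlapped replicate 1, and on X 9 of 14 did. Pooled, the index was 63.5% at the ends and 59.5% next to them. The difference of 3.98 percentage points was 1.37 without 3R, 6.85 without 3L and 2.04 against the adjoining 1 Mb, and these are values of 1 pair of libraries with no spread. Over 156 pairs of members that were each other's largest overlap, Pearson's r of the replicates' scores was 0.81 and Spearman's rho 0.82, a description across regions.

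Of the combined list's 343 members, 151 overlapped both replicate lists (44.0%, 95% Wilson interval 38.9 to 49.3%), against 39.3% in the adjoining sequence and 43.3% over the whole list. A further 82 overlapped 1 list (23.9%, against 26.5% in the adjoining sequence) and 110 overlapped neither (32.1%, against 34.1%). Members in both lists had a median width of 2814 bp and a median score of 0.53, and those in neither had 1302.5 bp and 0.36. On 3R 49 of 69 members overlapped both lists (71.0%, 59.4 to 80.4%), against 39.6% next to it. On X 9 of 40 did (22.5%, 12.3 to 37.5%), against 29.1%. These intervals too take regions as independent and cover only counting error. The combined list was made for the set of the same 2 libraries, so it is not independent of their lists. Of the combined bases at the end of 3R, 11.4% were in neither replicate list, against 27.4% in the adjoining 2 Mb. None of the 14 regions that the combined list named as depleted lay in an end or in an adjoining window. With so few in the whole list, this is not read as a result about the ends.

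Regions reached close to the end of the assembled sequence. On 3R the first member of the combined list started 232 bp from it, from 233 to 2438, and was 96.2% and 70.3% covered by the replicates. On 3L the last member lay 4.30 kb from it, from 24537358 to 24539259, and was in neither replicate list. On X it lay 9.80 kb away, from 22411476 to 22413027, and was found in replicate 1 alone. On 2L it lay 25.7 kb away, from 22983612 to 22985848, and was 72.2% and 95.1% covered by the replicates.

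No region of any list crossed a boundary. In the combined list the member just inside was 1511 bp wide with a score of 0.40 on 2L, 1587 bp with 0.35 on 3L, 1665 bp with 0.31 on X and 1469 bp with 0.26 on 3R. The region just outside was 1055 bp wide with 0.42 on 2L, 3346 bp with 0.59 on 3L, 1266 bp with 0.54 on X and 1758 bp with 0.30 on 3R.

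The Het scaffolds hold pericentric sequence that is not joined to the arms in this build. The ends of 2L and 3L were covered more than their scaffolds, by a wider margin on 2L. The end of 2L had 13.5% and 10.8%, against 6.80% and 4.66% on 2LHet from only 11 and 9 regions. The end of 3L had 13.9% and 10.2%, against 10.4% and 8.09% on 3LHet. The end of X, with 9.05% and 6.24%, lay below XHet, with 11.3% and 7.27% from only 12 and 8 regions. The end of 3R, with 38.9% and 32.0%, lay far above 3RHet, with 12.1% and 9.97%. These differences were not tested.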

How the data were processed

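The authors deposited 3 lists of regions, 1 for each H4 ChIP library and 1 for the replicate set, on FlyBase r5 per the file headers. Bowtie 0.12.7 is named in the submitters' processing notes. Which region caller and threshold were used, and how the combined list was made, is not given in the sources used here. The deposited first and last bases are other values than measurements, read as 1-based coordinates. The deposited score is the authors' own, with no stated scale.

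Regions were assigned to each end by the position rule above, and covered shares were computed per base with regions limited to the window. Widths, scores and spacings used whole regions. Replicate lists were analysed apart, and the value reported is the mean of 2. The members, boundaries and comparisons were chosen with earlier results of these data known. Regions are named by a rule: for each end the 3 longest, the 3 highest scoring and the one nearest the end of the sequence in the combined list, the longest empty stretch, and the regions beside the boundary. Empty stretches of the replicates, the levels of 10 and 20 kb, the level of 25% per bin and the score level of 1 were added after their values were seen.

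The counting of covered bases was tested on simulated regions, none of which crossed a window edge, and was exact in all 160 windows. Spacings, tiles, bins and overlaps between lists were not tested in this way. Alternatives were the higher scoring 50% of each list, a minimum width of 2000 bp, merging within 500 bp, adjoining windows of 1 and 4 Mb, the last 400 kb of each arm, equal weight of arms, and leaving out each arm or replicate. Python 3.11.15, NumPy 2.4.6, pandas 2.3.3, SciPy 1.17.1 and Matplotlib 3.10.9 were used. Depth per library is unknown.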

Additional observations from a re-analysis of the deposited data

Results flagged for a closer look

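The end of 3R went the other way from those of the other 3 arms in both replicates. Its covered share was above that of its adjoining 2 Mb in each library (by 4.69 and 5.41 percentage points), while those of 2L, 3L and X were below theirs in each library. The mean differences of 3R exceeded those of 2L by 11.4, of 3L by 31.0 and of X by 11.1 percentage points. For the median spacing the signs were opposite too, and the differences of 2L, 3L and X exceeded that of 3R by 6070, 11200 and 4050 bp. For the median width, 2L and 3R had wider regions at the end in each library and 3L narrower ones, so that 2L exceeded 3L by 325 bp and 3R exceeded 3L by 288 bp. By mean width, the difference between end and adjoining sequence was -101 ± 90.8 bp on 3R and -109 ± 60.8 bp on 3L (SD, n = 2 libraries each). The contrast of 3R with 3L was thus seen in the median only. None of these differences between arms was tested. In the combined list the opposition was not seen, since the covered share of the end of 3R was below that of its adjoining sequence and its median spacing 14.5 bp longer, the same signs as on the other arms.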

How the results depend on the processing

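Between ChIP and input, no paired analysis was possible because the inputs, which share replicate numbers with the ChIP libraries, have no values here; end and adjoining sequence were compared in pairs within each library. The pooled difference in covered share, -10.9 percentage points, stayed negative under the 14 alternatives tried, from -19.8 to -4.52. It was -5.30 with the higher scoring 50% of each list, -6.58 with regions of at least 2000 bp, -4.52 with the last 400 kb of each arm, -8.31 with arms at equal weight, -4.67 without 3L, -13.8 without X and -19.8 in the combined list; with 1 replicate left out it was -12.4 to -9.41. The difference in median spacing, 3426 bp, stayed positive under the 14 tried. It was 9296.5 bp with the higher scoring 50%, 8292 bp with regions of at least 2000 bp, 4434 bp with merging, 1150 bp with the last 400 kb, 4874 bp at equal weight, 3039.5 bp without 2L, 697 bp without 3L, 7757 bp without 3R and 2544 bp in the combined list, and 3171.5 to 3680.5 bp with 1 replicate left out. The difference in median width, 115 bp, was -8.25, -50.8 and -12.2 bp with the higher scoring 50%, with regions of at least 2000 bp and with the last 400 kb, 50.8 bp without 2L and 218 bp without 3L, and 78.0 to 151.5 bp with 1 replicate left out. The difference in median score, 0.034, was 0.020 with the higher scoring 50%, 0.026 with merging, 0.026 with the adjoining 4 Mb, -0.0048 with the last 400 kb, 0.046 at equal weight, 0.020 without 2L, 0.0099 without 3L, 0.044 without X and 0.056 without 3R, and 0.029 to 0.040 with 1 replicate left out. The difference in the Jaccard index, 3.98 percentage points, was 6.41 with the higher scoring 50%, 3.32 with regions of at least 2000 bp, 3.69 with merging, 2.04 and 3.58 with the adjoining 1 and 4 Mb, 3.41 with the last 400 kb, 1.63 at equal weight, 3.63 without 2L, 6.85 without 3L, 4.43 without X and 1.37 without 3R. The cause of the changes of sign was not tested. Counting at least 50% of a region as shared gave 78.7% in place of 79.9% as the mean of the replicates. With 2 libraries of unknown depth, small differences in width and score cannot be told from noise.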
